A study of Mus musculus with 4 samples.

Results

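Immunoglobulin transcripts were examined in leukaemia stem cells, the leukaemic cells that can re-initiate disease, from the bone marrow of C57BL/6 mice. The members were every gene or segment of the heavy, kappa and lambda immunoglobulin loci in the deposited table, chosen by symbol, plus Jchain, which gave 99 of 16442 genes. They comprised 8 constant genes, Jchain, 81 variable segments, 3 diversity segments and 6 joining segments, and 59 of them belonged to the heavy chain locus, 32 to the kappa locus and 7 to the lambda locus. The GENCODE M21 annotation lists 432 immunoglobulin genes and segments in all, and those outside the table were not analysed here. The first group held 2 libraries titled KO, from leukaemic mice with a knockout of Rreb1, a zinc-finger transcription factor, and the second held 2 libraries titled WT, from leukaemic mice without it. Ages, the way leukaemia was induced, the part of Rreb1 that was removed and any pooling of animals were not stated. The genotype label of KO replicate 2 names Rreb2 in place of Rreb1, and the extraction text names tumour-associated macrophages, so groups were taken from the titles.

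Each antibody is built from heavy and light chains, and a B cell makes a chain gene by cutting and joining germline variable, diversity (heavy chain only) and joining segments in front of a constant gene. The constant gene sets the class: mu for the membrane receptor and secreted IgM, gamma for IgG, and alpha for the IgA of mucosal surfaces. Bone marrow holds developing B cells and long-lived antibody-secreting plasma cells beside myeloid cells, and a gene segment that has not been rearranged can also be copied into germline transcripts. A variable segment marks the clones that use it, while a constant gene is shared by all clones of its class.

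Rreb1 did not check the labels, because it stood at 6.10 and 6.93 FPKM (fragments scaled by exon length and library depth) in the KO libraries and at 5.24 and 6.57 FPKM in the WT libraries. The log2 change was 0.13 (95% limits −0.20 to 0.45, limma adjusted p = 0.616), so KO is used below as the name of the libraries so titled. The libraries held 16590830 to 18451251 assigned reads each. The leukaemia stem cell genes Hoxa9 (35.8 and 31.8 FPKM in KO, 28.9 and 30.4 FPKM in WT), Meis1 (11.9 and 11.5 in KO, 10.8 and 11.5 in WT) and Cd34 (50.5 and 49.8 in KO, 68.3 and 71.5 in WT) were present in every library.

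Immunoglobulin reads were a small part of every library and were scarcer in KO. All members together took 225 and 197 reads per 1000000 assigned reads (RPM) in the KO libraries (4139 and 3352 reads) and 382 and 364 in the WT libraries (7052 and 6041 reads). The means were 211 ± 19.8 RPM in KO and 373 ± 12.8 in WT (SD, n = 2 each), a log2 ratio of −0.82, and neither KO library reached the lower WT library. With 2 libraries per group the smallest two-sided permutation p is 0.333, so sums over members are given without a test. In such bulk samples fewer cells of a type and less RNA per cell cannot be told apart.

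Single genes were tested with limma on log2(FPKM + 1) over all 11768 genes averaging 1 FPKM or more, with Benjamini-Hochberg adjustment and a threshold of 0.05. Of the 99 members 41 reached that level, 9 fell in KO, 0 rose and 32 were not called, with 11 lower and 4 higher at an unadjusted p under 0.05. Of all tested genes 0.408% fell and 0.603% rose, 1.01% in either direction, and of the 11768 genes 1100 were lower and 1340 higher at an unadjusted p under 0.05. The members' median log2 change was −0.32, against 0.03 over all tested genes. The comparison of these shares is limited by the filter: 14 of the 41 members reached it through 1 group only, among them 5 of the 9 that fell (Ighv7-3, Ighv6-3, Igkv9-120, Igkv4-90 and Igkv8-19), whose KO means were under 1 FPKM. The other 4 that fell, Igha, Ighm, Igkc and Jchain, reached it in both groups, though without the filter only Igha was called. With 1 library left out, 2 members (Igha and Igkc) fell without KO replicate 1, and 0 without KO replicate 2, WT replicate 1 or WT replicate 2. Over all 99 members, the groups were apart with KO lower for 27 and with KO higher for 12, and 60 overlapped, where 21.6% of all genes in the table lay wholly below and 28.9% wholly above.

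**Figure D1:**
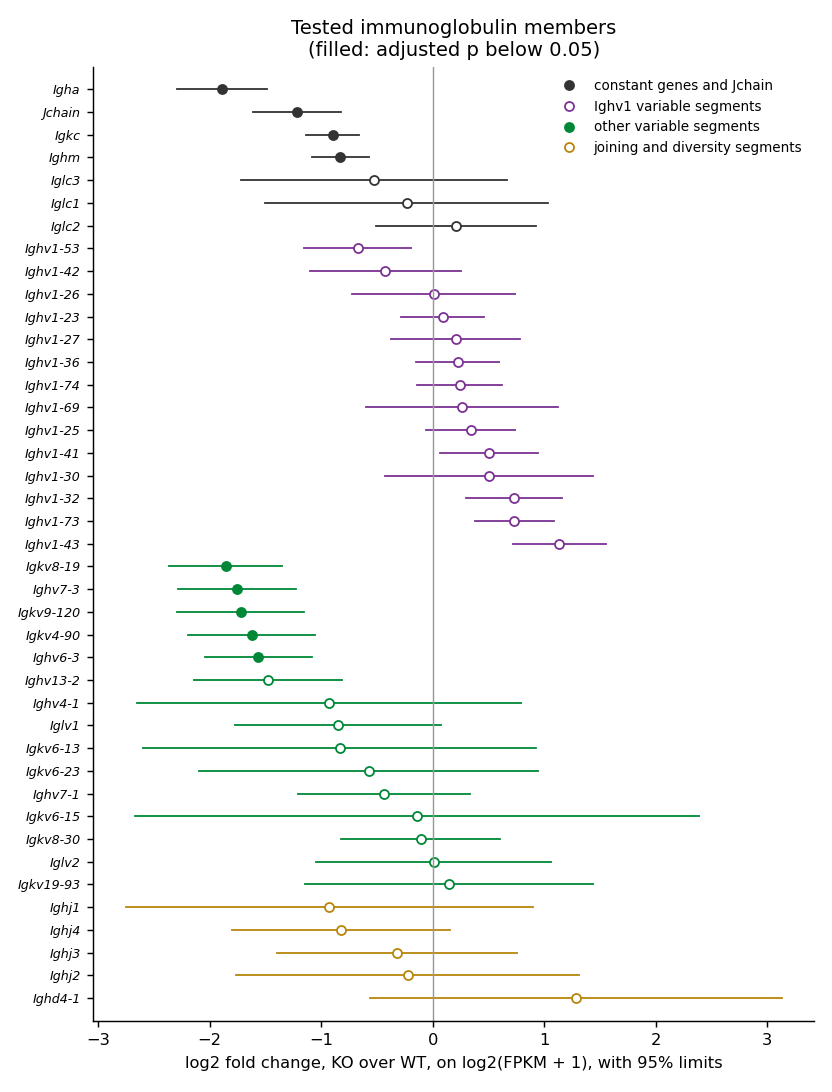
Log2 fold change, KO over WT, on the log2(FPKM + 1) scale for the 41 tested immunoglobulin members, 1 row each, with 95% limits. Filled points are the 9 with an adjusted p below 0.05, all left of 0, from Igha at −1.89 to Ighm at −0.83. Of the 14 Ighv1 segments, 12 lie right of 0 and none is filled; Ighv1-26, at 0.01, lies left of 0 after median ratio scaling.

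The constant genes carried most of the difference. Igha, the alpha heavy chain, fell most among them: it had 131 and 84 reads (2.67 and 1.85 FPKM) in KO and 598 and 437 reads (12.1 and 9.87 FPKM) in WT. Both KO libraries were well below both WT libraries, and the means were 2.26 ± 0.578 FPKM in KO and 11.01 ± 1.61 FPKM in WT (SD, n = 2 each; log2 change −1.89, SE 0.16, limma adjusted p = 0.0125). Ighm, the mu heavy chain and the most abundant member, had 76.3 and 65.9 FPKM in KO and 133 and 121 FPKM in WT (log2 change −0.83, SE 0.11, adjusted p = 0.0343). Its libraries did not overlap either, and it made up 64.0% and 63.2% of all member reads in KO and 65.4% and 62.5% in WT, so its weight among the members overlapped between the groups. The gamma heavy chains had few reads and were not tested in that fit. Ighg2b had 21 and 25 reads in KO and 58 and 25 in WT (limma-voom on recovered reads, log2 change −0.77, adjusted p = 0.312), and Ighg3 had 11 and 2 in KO and 41 and 11 in WT (log2 change −2.05, adjusted p = 0.126). For both genes WT replicate 1 was the highest library, and WT replicate 2 was close to a KO library.

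Among light chains, Igkc, the kappa constant region used by most mouse antibodies, fell. It had 303 and 245 reads (30.9 and 27.0 FPKM) in KO and 518 and 500 reads (52.8 and 56.6 FPKM) in WT, with no overlap (log2 change −0.90, SE 0.10, limma adjusted p = 0.0230). It lies within a long non-coding RNA annotated on the same strand, Gm30211, whose reads cannot be told apart from its own. The lambda constant genes gave no such pattern. Iglc1 had 64 and 32 reads in KO and 29 and 96 in WT (log2 change −0.23, adjusted p = 0.824), Iglc2 had 20 and 13 in KO and 7 and 19 in WT (0.21, adjusted p = 0.710), and Iglc3 had 8 and 6 in KO and 31 and 4 in WT (−0.53, adjusted p = 0.565). By FPKM, in each of the 3 the WT libraries lay on either side of the KO libraries, and the 95% limits were wide, −1.50 to 1.04 for Iglc1. Iglc1 and Iglc3 overlap an antisense gene, 2010309G21Rik, and Iglc2 overlaps Iglj2, so their reads may be shared.

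Jchain, on chromosome 5 and outside the immunoglobulin loci, encodes the joining chain that links IgM and IgA units into polymers and is made in antibody-secreting cells. It had 56 and 36 reads (1.21 and 0.839 FPKM) in KO and 157 and 167 reads (3.38 and 3.999 FPKM) in WT. Both KO libraries were below both WT libraries, and the gene fell by 1.22 on the log2 scale (SE 0.16, limma adjusted p = 0.0381). Limma-voom on recovered reads called all 4 falls among the constant genes and Jchain too; it tested 76 members, of which 11 fell and 0 rose, where 2.61% of 14649 genes fell and 3.74% rose.

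**Figure D2:**
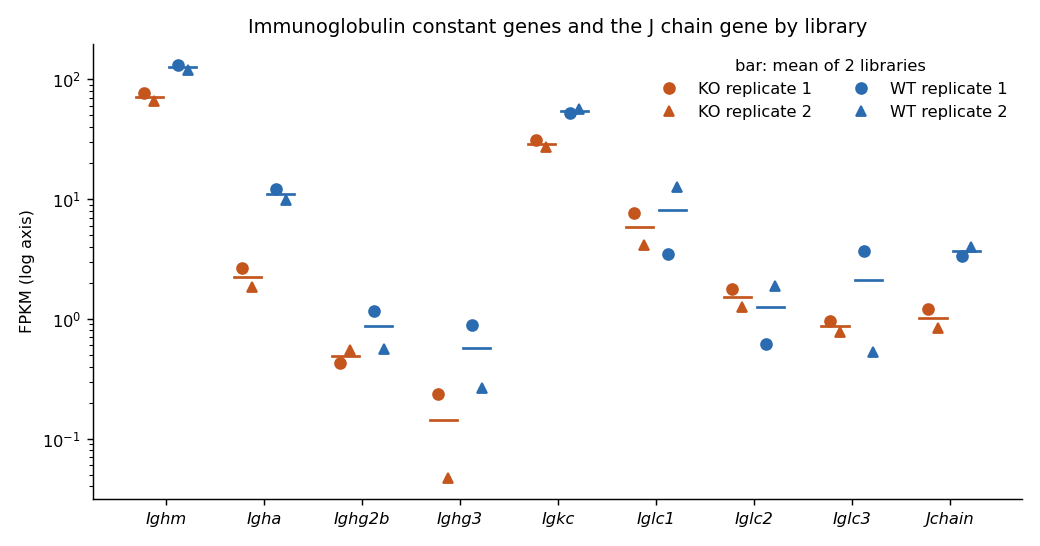
FPKM on a log axis for the 8 constant genes and Jchain, with each library as a point (KO left, WT right of each gene) and bars at the mean of 2 libraries. The KO points lie below the WT points for Ighm, Igha, Igkc and Jchain, by the largest distance for Igha (2.26 against 11.01 FPKM on average). They also lie below for Ighg2b and Ighg3, which have few reads and nearly touch, and the lambda genes overlap.

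Variable segments differed less as a class than constant genes. Their sums were 46.8 and 45.3 RPM in KO and 53.4 and 58.2 in WT (log2 ratio −0.28), where constant genes with Jchain were at 177 and 150 in KO and 328 and 303 in WT (log2 ratio −0.95). Variable segments made up a larger share of member reads in KO, 20.8% and 23.0%, than in WT, 14.0% and 16.0%, with no overlap. Of 81 segments 29 were tested, 5 fell, 0 rose and the median log2 change was −0.11. Of the 29, 12 had reached the filter through 1 group only, and all 5 that fell did so through WT. The class was next summed as Ighv1, other heavy chain, kappa and lambda segments, a grouping not set in advance. The 32 members of Ighv1, the largest family of mouse heavy chain segments, summed to 33.7 and 36.9 RPM in KO and 26.6 and 30.4 in WT (log2 ratio 0.31). The other 16 heavy chain segments summed to 2.66 and 1.70 in KO and 8.89 and 8.08 in WT (log2 ratio −1.96), and the 30 kappa segments to 5.75 and 4.81 in KO and 13.7 and 13.9 in WT (log2 ratio −1.38). Ighv1 lay higher in KO, and the other heavy chain and the kappa segments lower, without overlap in any of these 3 sums. Without Ighv1-41 the Ighv1 sums overlapped, at 24.0 and 25.6 RPM in KO and 17.8 and 24.5 in WT. Single families within the other pools were mixed. Ighv8 had 6 and 7 reads in KO and 5 and 5 in WT, and Igkv1 had 14 and 9 in KO and 11 and 17 in WT. Igkv9 had 4 and 7 in KO and 42 and 24 in WT. The 3 lambda segments overlapped, with 4.72 and 1.88 RPM in KO and 4.28 and 5.85 in WT.

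**Figure D3:**
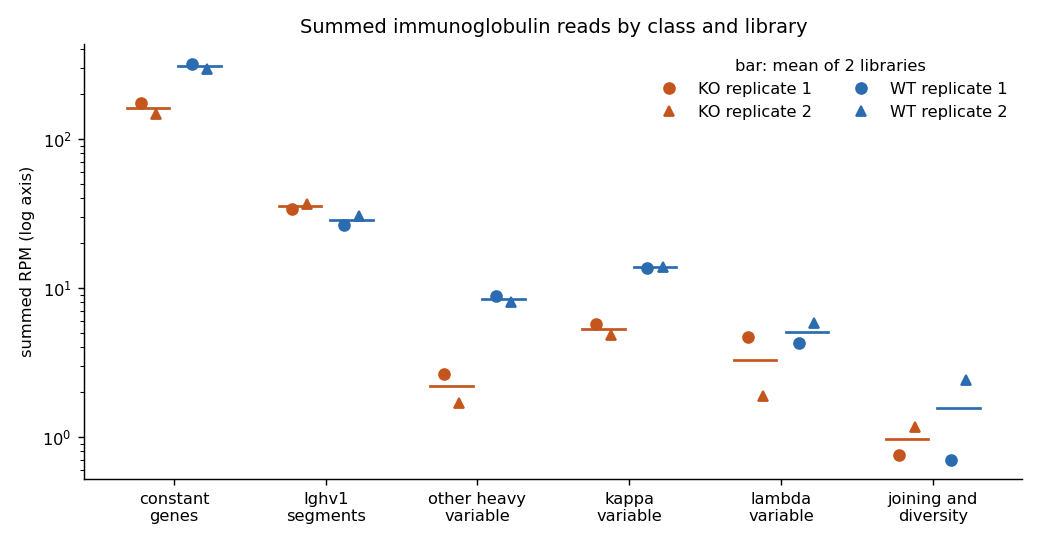
Summed RPM (reads per 1000000 assigned reads) on a log axis for 6 classes of members, with KO libraries left and WT libraries right of each label and bars at the mean of 2 libraries. Constant genes, other heavy chain variable segments and kappa variable segments are lower in KO. The Ighv1 segments are higher in KO (35.3 against 28.5 on average), though their sums overlap without Ighv1-41. Lambda variable, joining and diversity segments overlap.

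With Ighv1 and the other families summed together, the heavy chain variable sum was 36.3 and 38.6 RPM in KO and 35.4 and 38.5 in WT, with overlap. Set against the heavy constant genes on a per-length scale, summed variable FPKM were 1.32 and 1.64 times the constant FPKM in KO and 0.688 and 0.837 times in WT. Without Ighv1 the order turned: the ratios were 0.0896 and 0.0690 in KO and 0.162 and 0.169 in WT. The kappa ratio of variable to constant FPKM was likewise lower in KO, 0.506 and 0.488, than in WT, 0.711 and 0.679. Heavy and light chains as wholes were both lower in KO. Heavy chain members took 190 and 171 RPM in KO and 324 and 297 in WT (log2 ratio −0.79), and light chain members 31.9 and 24.1 in KO and 49.6 and 57.0 in WT (log2 ratio −0.93). Of 26 tested heavy chain members 4 fell and 0 rose. Of 14 light chain members 4 fell, all 4 in the kappa locus, and 0 rose. Over all tested genes 0.408% fell and 0.603% rose. These counts are limited by the filter, which 8 of the 26 and 6 of the 14 had reached through a single group only. Among those were all the variable segments that fell, in both chains. Without the filter 1 heavy chain member and 0 light chain members fell. Light constant FPKM relative to heavy constant FPKM overlapped, at 0.519 and 0.486 in KO and 0.413 and 0.547 in WT.

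Ighv1 held the most abundant variable segment of every library. The leading pair was Ighv1-41, annotated as a pseudogene, and Ighv1-23, annotated as functional. Ighv1-41 had 178 and 191 reads in KO and 162 and 99 in WT, with both KO libraries above both WT libraries (log2 change 0.50, SE 0.18, limma adjusted p = 0.203). Ighv1-23 had 145 and 150 reads in KO and 123 and 151 in WT, with overlap (log2 change 0.09, adjusted p = 0.757). Of 14 tested Ighv1 segments 0 passed the threshold in limma (1 lower and 4 higher in KO at an unadjusted p under 0.05) and 0 of 28 in limma-voom (1 lower and 2 higher). Their median log2 change was 0.26. The smallest adjusted p belonged to Ighv1-43, named here after its values were seen, with 16 and 19 reads in KO and 4 and 5 in WT (log2 change 1.14, adjusted p = 0.0512). That segment had reached the filter through KO only, with means of 2.83 FPKM in KO and 0.738 in WT. Its limma-voom adjusted p was 0.0929. Over all 32 segments 10 lay wholly above and 5 wholly below WT, near the shares of all genes (28.9% and 21.6%).

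Ighv1-23 has a close relative in sequence, and whether the counting told their reads apart was not examined. The last 300 bases of its coding sequence are shown with those of Ighv1-15, the annotated segment most like it, from GENCODE M21 transcripts (GRCm38, minus strand, chr12:114764450-114764883 for Ighv1-23 and chr12:114657353-114657786 for Ighv1-15). Capitals mark the bases that differ between them.
Ighv1-23: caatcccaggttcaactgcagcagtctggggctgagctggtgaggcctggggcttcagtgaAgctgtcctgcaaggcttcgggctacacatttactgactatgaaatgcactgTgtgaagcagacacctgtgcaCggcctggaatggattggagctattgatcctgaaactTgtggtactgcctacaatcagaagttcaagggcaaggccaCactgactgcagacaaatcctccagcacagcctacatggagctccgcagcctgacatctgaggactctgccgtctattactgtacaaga
Ighv1-15: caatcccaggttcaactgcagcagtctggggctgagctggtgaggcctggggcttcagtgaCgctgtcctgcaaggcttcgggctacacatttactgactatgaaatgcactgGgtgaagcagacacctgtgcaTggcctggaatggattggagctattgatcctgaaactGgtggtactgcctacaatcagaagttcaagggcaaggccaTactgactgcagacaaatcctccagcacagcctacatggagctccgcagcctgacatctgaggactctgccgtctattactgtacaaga
The printed sequences differ at 5 of 300 bases, the segments as a whole have 98.0% identity, and the longest stretch they share without a difference is 88 bases. Ighv1-15 had few reads, 6 and 5 in KO and 1 and 6 in WT, which does not show whether its reads were kept apart from those of Ighv1-23. Among all 81 variable members 39 had another annotated segment at 95% identity or more, with a median of 94.9% and a range of 58.5% to 99.2%. Counts of single segments are therefore uncertain, since the counting may have split or dropped reads that fit several segments. These are germline sequences, and rearranged, mutated copies were not examined.

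Most of the Ighv1 reads came from a single stretch of 182 kb. Its ends were chosen with the values known, so its contrast with the rest of the family is descriptive only. The 17 members from Ighv1-23 to Ighv1-43 (of 21 variable segments annotated there, with 0 other genes) took 530 and 513 reads in KO and 389 and 411 in WT, and all 17 had reads in all 4 libraries. The stretch stood at 28.8 and 30.1 RPM in KO and 21.1 and 24.8 in WT (log2 ratio 0.36). Without Ighv1-41 the sums were 19.1 and 18.9 in KO and 12.3 and 18.8 in WT, nearly touching, and after median ratio scaling they overlapped. The whole family without Ighv1-41 also overlapped, at 24.0 and 25.6 in KO and 17.8 and 24.5 in WT. The 15 Ighv1 members outside the stretch overlapped, at 4.89 and 6.75 in KO and 5.47 and 5.67 in WT. Split by annotation, the 12 Ighv1 pseudogenes summed to 18.0 and 17.8 in KO and 12.7 and 12.2 in WT (log2 ratio 0.52), while the 20 functional segments overlapped, at 15.6 and 19.1 in KO and 13.8 and 18.3 in WT. The pseudogene sum includes Ighv1-41, which held 178 of 332 and 191 of 303 of its reads in KO. In WT it held 162 of 235 and 99 of 202, so the split rests largely on that segment. The other abundant members of the family overlapped one by one. Ighv1-30, a pseudogene in the stretch, had 64 and 39 reads in KO and 21 and 50 in WT (log2 change 0.51, adjusted p = 0.476). Ighv1-26 had 24 and 19 in KO and 14 and 30 in WT (0.01, adjusted p = 0.990), and Ighv1-69, farther from the constant genes, had 21 and 47 in KO and 33 and 19 in WT (0.27, adjusted p = 0.693).

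**Figure D4:**
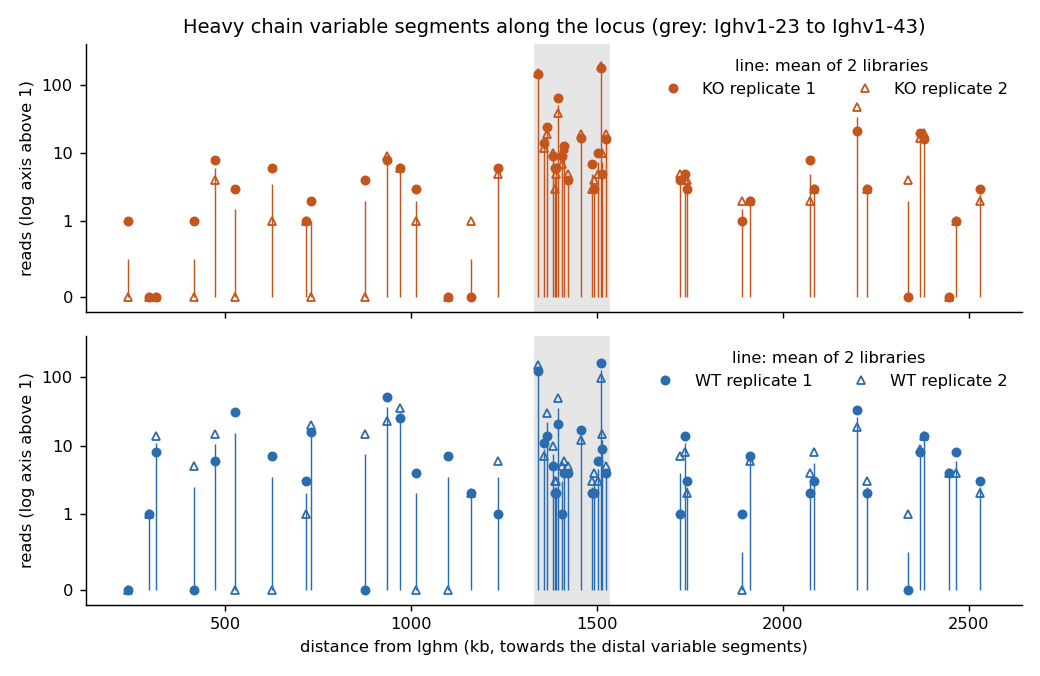
Reads of the 48 heavy chain variable members against distance from Ighm in kb, with KO libraries in the upper panel and WT libraries in the lower panel. Points are libraries, lines are means of 2 libraries, the read axis is logarithmic above 1, and grey marks Ighv1-23 to Ighv1-43. That stretch was chosen with the values known. Within the grey stretch both panels hold the highest points; nearer to Ighm, segments such as Ighv13-2 (8 and 9 reads in KO, 51 and 23 in WT) stand higher in WT.

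The pooled sum of the heavy chain segments outside Ighv1 was lower in KO, though not every family followed it. Ighv8 had 6 and 7 reads in KO and 5 and 5 in WT. Part of the WT sum came from Ighv4-1, with 3 and 0 reads in KO and 31 and 0 in WT. Ighv7-3 had 2 and 0 reads in KO and 16 and 20 in WT (log2 change −1.75, SE 0.22, limma adjusted p = 0.0330), and Ighv6-3 had 6 and 6 in KO and 25 and 35 in WT (−1.56, SE 0.20, adjusted p = 0.0342). Both fell, and their KO libraries were below both WT libraries. Ighv13-2 had 8 and 9 reads in KO and 51 and 23 in WT; its adjusted p was 0.0768 in limma and 0.0413 in limma-voom. Ighv5-9-1, which was under the level filter and is named after its values were seen, had 0 and 0 reads in KO and 8 and 14 in WT (limma-voom adjusted p = 0.0117). Against a floor of 3 reads over the KO group it was 7.42-fold lower in KO. That floor allows for counting error only, not for the spread between libraries. Of 5 tested segments 2 fell, where 0.408% of all tested genes fell. Of the 5, 4 had reached the filter through WT only, both that fell among them. Over all 16 segments 6 lay wholly below and 1 wholly above WT, and 9 overlapped, where 21.6% of all genes lay wholly below and 28.9% wholly above. Some of the 6 rest on very few reads, such as Ighv2-6 with 0 and 0 in KO and 1 and 1 in WT. The counts are low: 16 segments shared 49 and 29 reads in the KO libraries and 164 and 134 in the WT libraries.

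Among kappa variable segments, 8 of 30 were tested and 3 fell, where 0.408% of all tested genes fell. Of the 8, 5 had reached the filter through WT only, all 3 that fell among them. Without the filter 0 of 30 were called. Igkv8-19 had 1 and 2 reads in KO and 19 and 26 in WT (log2 change −1.86, SE 0.21, limma adjusted p = 0.0243). Igkv9-120 had 4 and 7 reads in KO and 42 and 24 in WT (−1.72, SE 0.23, adjusted p = 0.0408). Igkv4-90 had 0 and 0 reads in KO and 10 and 16 in WT (limma adjusted p = 0.0489, and 0.0516 after median ratio scaling). It was 8.77-fold lower in KO against the same floor, with the same limit. In all 3 the libraries of the groups were apart, and limma-voom called the same 3. The end of the coding sequence of Igkv8-19 (minus strand, chr6:70340876-70341453) is shown with that of Igkv8-28 (minus strand, chr6:70143593-70144166), its closest annotated relative, since reads could be assigned to either; the last 300 bases are given and capitals mark those that differ.
Igkv8-19: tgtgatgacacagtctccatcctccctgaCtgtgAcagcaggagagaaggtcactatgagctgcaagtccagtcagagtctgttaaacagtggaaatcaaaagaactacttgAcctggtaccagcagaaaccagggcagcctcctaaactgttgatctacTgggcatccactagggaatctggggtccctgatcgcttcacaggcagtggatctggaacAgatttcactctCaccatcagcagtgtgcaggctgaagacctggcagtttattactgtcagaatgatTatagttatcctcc
Igkv8-28: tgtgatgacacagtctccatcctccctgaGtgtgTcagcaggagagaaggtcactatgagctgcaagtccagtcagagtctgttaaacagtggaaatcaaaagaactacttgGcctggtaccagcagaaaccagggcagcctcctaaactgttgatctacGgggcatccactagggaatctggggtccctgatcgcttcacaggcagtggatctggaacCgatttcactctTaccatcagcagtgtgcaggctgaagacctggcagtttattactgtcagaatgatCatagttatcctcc
They differ at 7 of the 300 printed bases (97.7% identity). Igkv8-28 had 0 and 1 reads in KO and 0 and 5 in WT, so adding its reads to those of Igkv8-19 leaves the KO libraries below the WT libraries.

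Several kappa segments were abundant in 1 WT library and nearly or wholly missing from the other. Igkv6-15 had 21 and 12 reads in KO and 1 and 73 in WT, so its group means differed little beside the spread (log2 change −0.14, 95% limits −2.67 to 2.39, adjusted p = 0.948). Igkv6-13 and Igkv6-23 went the other way between the WT libraries: Igkv6-13 had 3 and 1 reads in KO and 29 and 0 in WT, and Igkv6-23 had 2 and 3 in KO and 22 and 0 in WT. These 3 segments of a single family are shown (minus strand, chr6:70406469-70406992, chr6:70457501-70458036 and chr6:70260409-70260955). In Igkv6-15 capitals mark bases that differ from either of the others, and in the other two they mark bases that differ from Igkv6-15, over the last 300 coding bases.
Igkv6-15: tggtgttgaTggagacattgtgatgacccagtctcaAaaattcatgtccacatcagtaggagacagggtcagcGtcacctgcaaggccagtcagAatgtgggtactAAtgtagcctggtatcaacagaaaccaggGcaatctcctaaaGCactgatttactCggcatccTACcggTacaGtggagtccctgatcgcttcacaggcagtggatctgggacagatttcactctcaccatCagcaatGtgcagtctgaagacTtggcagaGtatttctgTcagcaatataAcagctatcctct
Igkv6-13: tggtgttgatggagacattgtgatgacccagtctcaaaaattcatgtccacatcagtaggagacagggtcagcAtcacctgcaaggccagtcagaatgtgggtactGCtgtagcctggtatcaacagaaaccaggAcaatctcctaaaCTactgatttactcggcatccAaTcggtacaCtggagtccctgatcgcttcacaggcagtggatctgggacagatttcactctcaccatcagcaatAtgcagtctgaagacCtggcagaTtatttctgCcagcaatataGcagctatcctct
Igkv6-23: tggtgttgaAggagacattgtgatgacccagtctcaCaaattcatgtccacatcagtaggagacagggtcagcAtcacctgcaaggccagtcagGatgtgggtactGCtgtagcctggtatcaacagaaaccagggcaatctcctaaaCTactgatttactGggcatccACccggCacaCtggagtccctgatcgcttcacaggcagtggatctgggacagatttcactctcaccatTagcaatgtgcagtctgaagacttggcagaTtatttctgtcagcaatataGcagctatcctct
Igkv6-15 differs from Igkv6-13 at 14 of these bases (95.3% identity) and from Igkv6-23 at 16 (94.7%). Outside Ighv1, 9 of 49 variable segments had at least 10 reads in 1 WT library and 0 in the other, and 1 of 49, Igkv6-25, did so between the KO libraries; group means of such segments rest on a single library. In Ighv1 the counts were 0 of 32 in KO and 0 of 32 in WT. Likewise 28 of 32 Ighv1 segments had reads in all 4 libraries, against 18 of 49 of the others. These counts depend on read totals, which differed. Outside Ighv1 the libraries held 242 and 143 reads in KO and 495 and 461 in WT, so 10 reads were harder to reach in KO. In Ighv1 they held 620 and 628 in KO and 490 and 505 in WT.

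**Figure D5:**
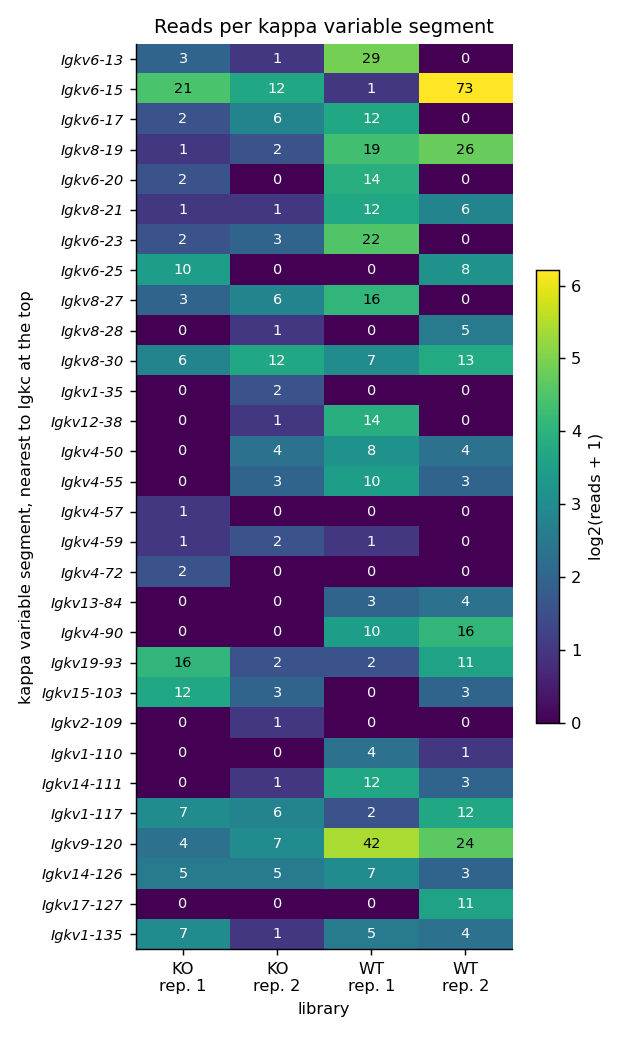
Reads of the 30 kappa variable members (rows, nearest to Igkc at the top) in each library (columns, KO left and WT right), coloured by log2(reads + 1) with the read number printed. Igkv9-120, Igkv8-19 and Igkv4-90 are bright in both WT columns, whereas Igkv6-15, at 1 and 73 reads, differs between the WT columns.

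In the lambda locus, the smallest of the 3 and used by few mouse antibodies, Iglv1 was the most abundant variable segment outside Ighv1 in all 4 libraries. It had 66 and 23 reads in KO and 67 and 86 in WT. By FPKM the groups were apart with KO lower, but KO replicate 1 (9.16 FPKM) nearly met WT replicate 1 (9.29 FPKM), and the gene was not called (log2 change −0.85, adjusted p = 0.267). It overlaps the antisense gene 2010309G21Rik. Of the 5 tested lambda members 0 passed in limma and 0 of 6 in limma-voom, where 1 was lower and 0 higher in KO at an unadjusted p under 0.05; in limma 0 were lower and 0 higher at that level.

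Joining segments lie between the diversity segments and Ighm, and the heavy chain ones are printed because a joined transcript must hold one of them, with the letters TGGGG, which code for the start of the conserved tryptophan and glycine motif, in capitals (GRCm38, minus strand, GENCODE M21). Their positions are chr12:113429781-113429833 for Ighj1, chr12:113429468-113429567 for Ighj2 (whose printed coding part ends at 113429515), chr12:113429085-113429132 for Ighj3 and chr12:113428514-113428567 for Ighj4.
Ighj1: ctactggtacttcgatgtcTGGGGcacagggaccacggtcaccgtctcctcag
Ighj2: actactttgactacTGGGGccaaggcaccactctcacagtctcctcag
Ighj3: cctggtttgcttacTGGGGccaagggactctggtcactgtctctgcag
Ighj4: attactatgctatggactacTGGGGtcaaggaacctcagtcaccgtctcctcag
The letters TGGGG were searched on the printed strand only, and each segment held 1 match. At 48 to 54 printed bases the segments are short, and their FPKM rest on few reads. Ighj1 had 2 and 11 reads in KO and 6 and 17 in WT (log2 change −0.93, adjusted p = 0.506), Ighj3 had 3 and 5 in KO and 3 and 8 in WT (−0.32, adjusted p = 0.711), and Ighj4 had 3 and 2 in KO and 3 and 8 in WT (−0.82, adjusted p = 0.297). Ighj2 had 5 and 1 reads in KO and 1 and 7 in WT. The groups overlapped for each, and of 5 tested joining and diversity segments 0 passed in limma and 0 of 4 in limma-voom (0 at an unadjusted p under 0.05 in either). The diversity segment Ighd4-1 passed the filter on 1 read, in KO replicate 1, which amounted to 4.94 FPKM. Igkj5, Ighd2-8 and Iglj3 had 0 reads in every library.

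Genes that make, read or carry antibodies were followed through 6 lists. Of the 13 tested genes of B cell receptor signalling 0 fell and 0 rose in limma (median log2 change 0.03), of 11 for V(D)J recombination and the surrogate light chain 0 and 0 (−0.02), of 11 for class switching and hypermutation 0 and 0 (0.07), and of 10 immunoglobulin transcription factors 0 and 0 (0.12), beside a median of 0.03 over all tested genes. At an unadjusted p under 0.05 these lists had 1 lower and 2 higher, 1 and 1, 1 and 1, and 0 and 2, and limma-voom called 1 lower and 2 higher, 0 and 0, 0 and 1, and 0 and 1. The receptor partners of membrane immunoglobulin pointed in opposite directions, neither past the threshold in limma. Cd79b had 25.2 and 22.7 FPKM in KO and 34.4 and 32.9 in WT (adjusted p = 0.0808; limma-voom 0.0267), and Cd79a had 3.09 and 3.71 FPKM in KO and 1.79 and 1.82 in WT (adjusted p = 0.101; limma-voom 0.0725). The surrogate light chain, which pairs with the mu chain in precursor B cells, has genes named here after their values were seen. Vpreb1 overlapped, at 1.72 and 1.37 FPKM in KO and 2.40 and 1.46 in WT. Igll1 overlapped too, at 0.527 and 0.407 in KO and 0.526 and 0.446 in WT. Vpreb3, of the same list, was apart with KO lower, at 0.442 and 0.273 in KO and 1.14 and 0.912 in WT (limma-voom log2 change −1.46, adjusted p = 0.173).

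Antibody assembly and secretion, the endoplasmic reticulum machinery that folds and exports chains in any secretory cell, had 0 of 16 tested genes past the threshold in limma, where 7 were lower and 0 higher at an unadjusted p under 0.05, and the median was −0.29. Limma-voom called 4 lower (Txndc5, Hspa5, Pdia4 and Edem2) and 0 higher. Hspa5, the chaperone BiP that holds unpaired heavy chains, had 324 and 280.3 FPKM in KO and 438 and 428 in WT (limma adjusted p = 0.104; limma-voom 0.00371). The oxidoreductase Txndc5 had 11.95 and 13.5 FPKM in KO and 28.2 and 19.6 in WT (limma adjusted p = 0.0937; limma-voom 0.00142). Of 6 tested immunoglobulin receptors and transporters 1 fell and 0 rose (median 0.02). It was Fcgrt, the neonatal Fc receptor that protects IgG from breakdown, at 2.56 and 2.40 FPKM in KO and 6.03 and 6.45 in WT (log2 change −1.06, SE 0.11, limma adjusted p = 0.0206), and it was not called with any 1 library left out. Fcgr4, an activating IgG receptor of myeloid cells, had 68.2 and 68.0 FPKM in KO and 49.4 and 36.8 in WT (limma adjusted p = 0.102; limma-voom 0.00520).

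Markers of cells that make immunoglobulin were sparse. Of 14 B cell markers 5 were in the table, with a summed level of 31.9 and 29.1 FPKM in KO and 39.4 and 38.2 in WT, most of it Cd79b; the others, Ms4a1 and Pax5 among them, were not analysed here. Of 11 plasma cell markers 5 were in the table, summing to 245 and 201 FPKM in KO and 305 and 270.3 in WT, most of it Xbp1, which other secretory cells also express. Of 3 tested B cell and 4 tested plasma cell markers 0 passed in limma in either direction (for B cells 1 lower and 1 higher at an unadjusted p under 0.05 and in limma-voom, for plasma cells 1 lower and 0 higher in both). No listed marker in the table was at 0 in all libraries. Sdc1, the plasma cell surface proteoglycan, had 0.470 and 0.108 FPKM in KO and 0.982 and 0.475 in WT, nearly touching (limma-voom adjusted p = 0.107). Other lists moved as well: 5 of 10 tested macrophage markers fell (summed 91.6 and 89.4 FPKM in KO, 156 and 185 in WT), and 7 of 10 mature neutrophil and 5 of 8 erythroid markers rose, all 5 of them haemoglobin or haem synthesis genes. The erythroid list went both ways, with 3 lower at an unadjusted p under 0.05 (Klf1, Car1 and Car2) and 2 fallen in limma-voom. Of 6 tested plasmacytoid dendritic cell markers 1 fell, Irf8, and 0 rose. Of 9 tested T and NK cell markers and 9 leukaemia stem cell markers 0 passed in limma (5 lower and 1 higher, and 2 lower and 3 higher, at an unadjusted p under 0.05; 1 lower and 1 higher, and 2 and 2, in limma-voom). The part of these cell types in the immunoglobulin differences was not tested.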

How the data were processed

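Poly(A) RNA of leukaemia stem cells was sequenced in 2 KO and 2 WT libraries. The submitters' processing notes name DESeq2, featureCounts, HISAT2 2.1.0 and CASAVA and the build GRCm38, without their roles. The library protocol in the labels does not mention strand marking. The authors deposited 1 table of 16442 genes, made per the file's values as FPKM (fragments scaled by exonic length and assigned reads) with 1 added, although no header names the unit. The lowest value was 1, and 1 was subtracted. Exonic lengths from GENCODE M21, matched by symbol for 16003 genes (97.3%), returned whole read numbers, within 0.05 reads, for 15776 genes (98.6%) in every library and 99.0% to 99.2% of low values (at most 30 reads) and for all 99 members. Depths were 18420466 and 17037493 assigned reads in KO and 18451251 and 16590830 in WT, where 3 reads on 2 kb of exons are 0.0814 to 0.0904 FPKM (counting error only).

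KO and WT were compared with limma 3.58.1 (R 4.3.3), trend form, on log2(FPKM + 1), with group as the only term, two-sided, for 11768 genes averaging 1 FPKM or more, with Benjamini-Hochberg adjustment and calls at 0.05. Degrees of freedom were 2 residual and 4.10 prior. This scale understates changes at low level. Limma-voom on recovered reads used 14649 genes with at least 10 reads in all. The code was also run on simulated reads with set changes and a fixed spread, not the spread of these libraries. That run does not measure error rates here. Nothing says that the replicates came from separate animals beyond the label of biological replicates, so p-values measure the spread between these libraries. Replicates differed by more than sampling noise (mean chi-square per gene 13.2 in KO and 11.04 in WT). Named were all constant genes and Jchain, the 12 segments with the highest mean FPKM, further called segments, and called list genes with up to 3 others by smallest p; others are said to be chosen after their values were seen or serve as cell type markers or sequence neighbours. Members and lists were chosen with earlier results of these data known. Sequences come from GENCODE M21 transcripts, aligned with Biopython 1.88.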

Additional observations from a re-analysis of the deposited data

How the results depend on the processing

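Of the 10 named genes that were called (the 9 members and Fcgrt), 10 remained called in limma-voom, 9 after median ratio scaling, 8 with a pseudocount of 0.1 and 1, Igha, without the filter on level; none of them changed direction under these settings or with any library left out. Counts of members that fell (9) ran from 0 to 2 with a library left out, which leaves 1 group with 1 library whose spread is borrowed from the other: 2 without KO replicate 1 and 0 without KO replicate 2, WT replicate 1 or WT replicate 2. No member rose except 1 without KO replicate 2. Without the filter 1 member fell. Replicate numbers pair nothing in the labels, and the correlation of the deviations of replicate 1 was 0.009 across 11768 genes; with the replicate block 4 members fell, 26 of all genes fell and 40 rose, and 0 list genes fell.

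Over all genes (48 fell, 71 rose) the counts were 10 and 22 without the filter and 383 and 548 in limma-voom, and 2 to 14 fell and 4 to 50 rose with a library left out. List genes (1 fell, 0 rose) became 0 fallen without the filter, 6 fallen and 5 risen in limma-voom, and 0 fallen with any library left out. The log2 ratio of summed member reads (−0.82) was −0.60 as a share of the summed FPKM of the whole table, −0.95 for constant genes and Jchain, −0.28 for variable segments, and −0.92 to −0.73 with a library left out. Of genes that were not called, Igkv6-15 (−0.14) turned to 0.57 with a pseudocount of 0.1 and 0.75 in limma-voom, and Ighv1-26 (0.01) to −0.0085 after median ratio scaling. With a library left out, the lowest and highest values were −1.04 and 0.58 for Iglc1, −1.34 and 0.28 for Iglc3, −0.20 and 0.62 for Iglc2, −0.12 and 0.31 for Ighv1-23, −1.98 and 0.13 for Ighj1, −0.082 and 1.10 for Ighv1-30, −0.98 and 0.35 for Ighj3, −0.26 and 0.80 for Ighv1-69, −1.93 and 1.64 for Igkv6-15, and −0.47 and 0.49 for Ighv1-26.
The cause of these changes was not tested. Depth limits most variable segments, which rest on few reads.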
